A study of Bos taurus with 8 samples.

Results

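Heat shock proteins and their cochaperones form the protein folding machinery described here, in peripheral blood mononuclear cells of cows. A list of 48 genes was used: HSP70 and HSP90 family members, J proteins, small heat shock proteins, the mitochondrial chaperonin, their regulators and the heat shock factors HSF1 and HSF2. A gene was taken as measured when the accession of at least 1 array probe belonged to its symbol, which held for 44 genes with 109 probes, HSPB11 being found through the symbol IFT25. HSPA4L, HSPA6, HSPA12A and HSPB7 had no matched probe. Of the 44 genes, 38 had a probe that the scanner software marked as well above background throughout 1 or more groups. These 38 were tested among 15137 genes in all, and 36 of them were so marked on all 8 arrays. The exceptions were HSPB2, measured on 3 of 4 lame arrays, and SERPINH1, measured on 1 of 2 Tharparkar arrays. HSPA1L, HSPA12B, HSPB3, CRYAB, DNAJA4 and DNAJB4 had probes but did not reach that level, so no difference is given for them.

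The study asked how blood mononuclear cells differ between lame and normal cows and between breed types. It holds 3 groups: lame crossbred cows, of a cross that is not named, with 4 arrays, normal crossbred cows with 2 arrays and normal cows of Tharparkar, a zebu breed, with 2 arrays. The labels give no age, sex or treatment, do not define lameness further, and hold no lame Tharparkar group. RNA was hybridised as technical duplicates, and neither the RNA sample behind each array nor the number of cows in a group is given in the sources used here. The titles number the lame arrays as R1 and R2, each with 2 arrays. The p-values therefore take arrays, not cows, as the unit, and overstate what is known of the cows. Where duplicates are averaged below, lame R1, lame R2 and each normal group were taken as 1 RNA sample each, an assumption that the labels do not settle. The random block used the same grouping. The fit with duplicates averaged leaves 1 sample in each normal group and has 1 residual degree of freedom, from lame R1 and lame R2. Its tests use a spread shared by all genes. It holds no spread within a normal group, so it cannot decide whether a call holds.

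HSP70 proteins bind exposed hydrophobic stretches of unfolded proteins in an ATP-driven cycle, in which J proteins deliver clients and exchange factors such as the BAG proteins release ADP. HSP90 proteins take over later folding steps of kinases and steroid hormone receptors with the help of cochaperones, small heat shock proteins hold unfolded proteins without ATP, and the chaperonin folds proteins inside a closed chamber in mitochondria. HSF1 is the transcription factor that raises many of these genes under heat and protein stress, and blood cells of cattle are often used to follow that response.

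Values are log2 signal minus the 75th percentile of the same array, so 0 is a fairly bright probe and each gene is compared only with itself. Between 52.8% and 70.9% of probes were well above background per array, with the highest share on lame array R2_2. That array also had the brightest negative controls, with a median of 107 beside 53 to 65 on the other arrays. Its median raw signal was 192.5, beside 74 to 102 on the others. Each slide held 2 lame arrays and 1 array of each normal group. The arrays of a pair differed by a median of 0.057 to 0.128 over the 38 genes. The mean level of 6 granulocyte marker genes was -1.17 to -0.86 on the lame arrays, 1.24 to 1.30 on the normal crossbred arrays and 1.77 to 1.85 on the Tharparkar arrays. CXCR2, a neutrophil chemokine receptor in that list, was well above background on only 2 of 4 lame arrays. The mean of 8 early response genes such as FOS and EGR1 was 1.92 to 2.11, 3.39 to 3.45 and 4.15 to 4.17 in the same order of groups. The T cell list (7 genes) lay at 1.60 to 1.74, 2.13 to 2.22 and 1.25 to 1.32, and the NK list (7 genes) at -0.34 to 0.71, 0.82 to 0.85 and -0.21 to -0.09. The monocyte list (6 genes) lay at 0.83 to 1.29, 0.66 to 0.68 and 0.92 to 1.02, and the B cell list (5 genes) at 3.47 to 3.74, 3.73 to 3.80 and 3.64 to 3.84. In such bulk RNA, fewer cells of a type and less RNA per cell cannot be told apart.

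Between lame and normal crossbred cows, the share of chaperone genes that passed the test was close to that of all genes. FKBP4, an HSP90 cochaperone of steroid receptors, was higher in the lame group, while HSPB8, a small heat shock protein, and BAG1, an HSP70 exchange factor, were lower. These were 3 of 38 genes (1 higher and 2 lower) at an adjusted p under 0.05 (limma, Benjamini-Hochberg over all 15137 genes), against 9.61% of all genes called in either direction, 3.28% higher and 6.33% lower. The arrays of the groups did not overlap for 13 of 38 genes (34.2%, beside 38.8% of all genes). The median difference over the 38 genes was 0.01, beside -0.04 over all genes. In this fit 8 of 38 genes had an unadjusted limma p under 0.05, beside 3903 of 15137 over all genes. With the slide as a block none of the 3 passed (0 of 38 genes, 8 of 38 at an unadjusted limma p under 0.05). That fit called 1002 of 15137 genes. None held with duplicates averaged either, where each normal group is 1 sample. The mean of a gene's kept probes gave 3 higher and 0 lower, beside 649 and 793 of 15137 genes. Of the 3 main calls only FKBP4 held there, and the median was 0.12, beside 0.04 over all genes.

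Between normal crossbred and normal Tharparkar cows, BAG3, an exchange factor that links HSP70 to HSPB8, and CHORDC1, an HSP90 partner, were higher in the crossbred group. HSPB8, HSPA8, the constitutive HSP70 of the cytosol, and DNAJB6, a J protein that keeps clients from aggregating, were lower. These were 5 of 38 genes (2 higher, 3 lower), against 18.7% of all genes called in either direction, 11.8% higher and 6.88% lower. The arrays of the groups did not overlap for 31 of 38 genes (81.6%, beside 81.9% of all genes). The median difference was -0.08, beside 0.01 over all genes. With the mean of a gene's kept probes 1 was called higher and 7 lower, beside 1843 and 1512 of 15137 genes. The normexp background correction left 2 higher and 0 lower, beside 797 and 515 of 15137 genes. No call held with duplicates averaged, where each normal group is 1 sample.

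Between lame crossbred and normal Tharparkar cows, where condition and breed type change together, BAG3 and CHORDC1 were higher and HSPB8 and BAG1 lower in the lame group. These were 4 of 38 genes (2 higher, 2 lower), against 23.3% of all genes called in either direction, 12.6% higher and 10.7% lower. The arrays of the groups did not overlap for 16 of 38 genes (42.1%, beside 49.9% of all genes). The median difference was -0.19, beside -0.01 over all genes. Quantile normalization gave 3 higher and 1 lower with a median of 0.00, beside 1716 and 1560 of 15137 genes and a median of -0.03. The mean of a gene's kept probes gave 3 higher and 3 lower with a median of 0.04. Over all genes that setting gave 2143 and 1684, also with a median of 0.04. This comparison shares its arrays with the other two, so its calls repeat values already given there.

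**Figure D1:**
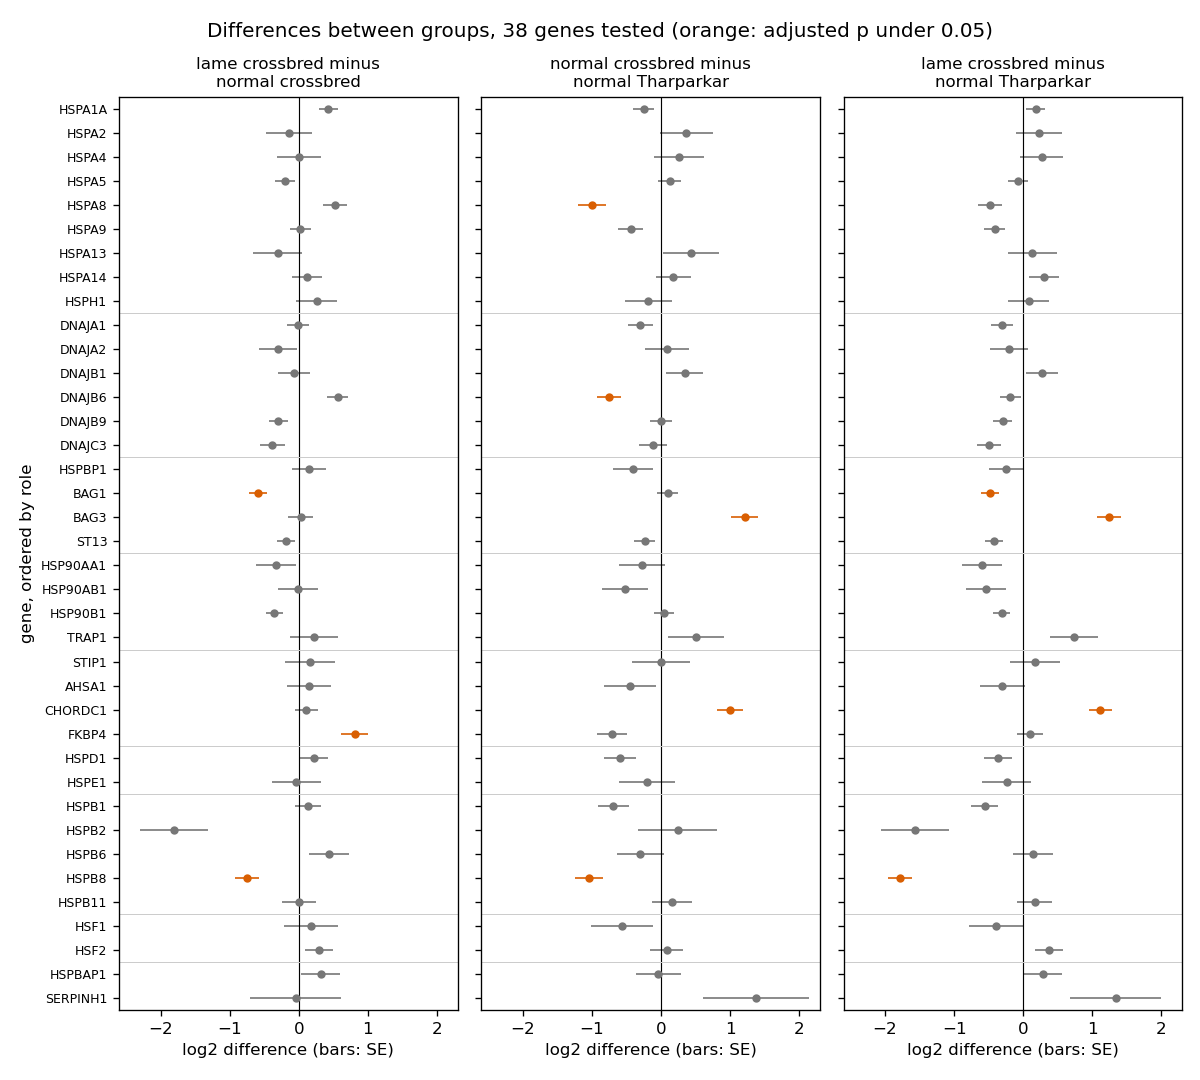
Log2 difference (horizontal axis, bars are the SE from limma) of the 38 tested genes, ordered by role on the vertical axis, in the 3 comparisons; orange marks an adjusted p under 0.05. 3, 5 and 4 genes are marked from left to right, and HSPB8 is marked in all 3 panels.

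HSPB8 was the only one of the 38 genes called in all 3 comparisons. Its level was 3.09, 3.12, 2.79 and 2.69 on lame arrays R1_1, R1_2, R2_1 and R2_2, 3.65 and 3.69 on the normal crossbred arrays, and 4.66 and 4.76 on the Tharparkar arrays. The groups did not overlap, with Tharparkar highest and lame crossbred lowest. The lame group was 0.75 (SE 0.17, adjusted p = 0.038) below normal crossbred, a 1.68-fold difference, and 1.79 (SE 0.17, adjusted p = 0.00075) below Tharparkar, a 3.45-fold difference. Normal crossbred lay 1.04 (SE 0.20, adjusted p = 0.012) below Tharparkar, a 2.06-fold difference. Within slide 1 the lame minus Tharparkar difference was -1.71, and within slide 2 it was -1.86. That call held in 21 of 22 alternatives and ended with duplicates averaged (adjusted p = 0.15). The call between the crossbred groups ended without lame array R2_1 (adjusted p = 0.068), without either normal crossbred array (0.27 each) or without either Tharparkar array (0.088 each), and was 0.07 with the slide as a block. With the mean of its kept probes that difference was -0.27 (adjusted p = 0.37), and with normexp the adjusted p was 0.097. Without normal crossbred array 1 or 2 or Tharparkar array 1 or 2, the call between the normal groups had adjusted p = 0.095, 0.085, 0.076 and 0.093. Another HSPB8 probe gave -0.51, -0.95 and -1.46 in the 3 comparisons, and the last, of opposite sign between the crossbred groups, gave 0.44, -1.60 and -1.16. The means of the granulocyte and early response lists had the same order of groups as HSPB8. Between the normal groups, 2 of 6 granulocyte genes and 1 of 8 early response genes went the other way. The part of these lists in the HSPB8 differences was not tested.

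The other small heat shock proteins did not pass the test in any comparison. HSPB1, the widely expressed HSP27, read 6.19, 5.96, 5.63 and 5.63 on the lame arrays, 5.68 and 5.76 on the normal crossbred arrays and 6.46 and 6.36 on the Tharparkar arrays. Both crossbred groups lay below Tharparkar and overlapped each other, at -0.69 (SE 0.22, adjusted p = 0.073) for normal crossbred and -0.56 (SE 0.19, adjusted p = 0.079) for lame crossbred. HSPB2, a small heat shock protein best known from muscle, was dim, at -2.43, -1.99, -3.23 and -3.94 on the lame arrays against -1.16 and -1.02 in normal crossbred and -1.28 and -1.39 in Tharparkar. Every lame array lay below every normal array, yet the differences of -1.81 (SE 0.50, adjusted p = 0.066) and -1.56 (SE 0.50, adjusted p = 0.059) missed the threshold, and lame array R2_2 gave no signal well above background. CRYAB, which neighbours HSPB2 in the RefSeq table of assembly ARS-UCD2.0, was well above background on 1 of 8 arrays, lame R2_2. HSPB6 and HSPB11 differed by 0.44 or less in size in every comparison.

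BAG3 separated both crossbred groups from Tharparkar. It read 0.79, 0.95, 1.28 and 1.15 on the lame arrays, 1.04 and 1.00 in normal crossbred, and -0.28 and -0.10 in Tharparkar. All 6 crossbred arrays lay above both Tharparkar arrays, and the crossbred groups overlapped. Arrays without overlap were common, at 81.9% of all genes between the normal groups and 49.9% between lame crossbred and Tharparkar. The difference from Tharparkar was 1.21 (SE 0.20, adjusted p = 0.0073) for normal and 1.24 (SE 0.17, adjusted p = 0.0034) for lame crossbred, 2.31-fold and 2.36-fold, and within slides it ran from 1.10 to 1.32. Without Tharparkar array 1 the adjusted p was 0.072 and 0.052, and without normal crossbred array 1 or 2 that of the normal groups was 0.069 and 0.062. The other 2 kept BAG3 probes gave 0.35 and -0.25 between the normal groups and 1.01 and 0.55 between lame crossbred and Tharparkar, none past the threshold, and with the probes averaged the adjusted p between the normal groups was 0.38.

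CHORDC1, which binds HSP90 through its CHORD domains, had the same arrangement of groups on its only probe. It read 1.07, 1.06, 0.87 and 0.66 on the lame arrays, 0.74 and 0.86 in normal crossbred, and -0.26 and -0.15 in Tharparkar. Again the crossbred groups overlapped each other and lay apart from Tharparkar. The differences from Tharparkar were 1.01 (SE 0.19, adjusted p = 0.012) for normal and 1.12 (SE 0.16, adjusted p = 0.0040) for lame crossbred, or 2.01-fold and 2.17-fold. The adjusted p for lame crossbred was 0.058 without Tharparkar array 1. For the normal groups it was 0.078 and 0.10 without normal crossbred arrays 1 and 2, and 0.097 and 0.073 without Tharparkar arrays 1 and 2. Beside BAG3 and CHORDC1, the platelet list (2 measured genes) had means of 2.85 to 3.04 on the lame arrays, 2.70 to 2.75 in normal crossbred and 2.14 to 2.25 in Tharparkar. The erythroid list (4 measured genes) had 0.20 to 0.80, -0.19 to -0.18 and -0.54 to -0.42. Their part in these differences was not tested.

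BAG1 was lower in lame crossbred than in both normal groups. It read 2.47, 2.52, 2.34 and 2.34 on the lame arrays, 2.99 and 3.02 in normal crossbred, and 2.92 and 2.88 in Tharparkar. No lame array reached a normal array. The differences were -0.58 (SE 0.13, adjusted p = 0.034) from normal crossbred and -0.48 (SE 0.13, adjusted p = 0.035) from Tharparkar. The first was -0.59 within slide 1 and -0.58 within slide 2. The second BAG1 probe gave 0.67, -1.44 and -0.78 in the 3 comparisons, so the probes opposed each other between the crossbred groups, and their mean differed there by 0.04 (adjusted p = 0.88). Against normal crossbred, the adjusted p was 0.063 with the slide as a block, 0.055 and 0.059 without lame arrays R1_1 and R2_1, 0.27 without either normal crossbred array and 0.09 without either Tharparkar array. Against Tharparkar it was 0.057 with the slide as a block, 0.062 without lame array R2_1, 0.084 without either normal crossbred array, and 0.23 and 0.19 without Tharparkar arrays 1 and 2. There normexp gave a difference of -0.13 (adjusted p = 0.66) and quantile normalization -0.30 (adjusted p = 0.099). The remaining regulators of HSP70, ST13, which steadies the ADP-bound form, and HSPBP1, an exchange factor, were not called. ST13 came nearest, at -0.42 (SE 0.13, adjusted p = 0.059) for lame crossbred against Tharparkar.

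FKBP4, whose protein FKBP52 joins HSP90 in steroid receptor complexes, was lowest in normal crossbred. Its only probe read -0.06, -0.03, -0.54 and -0.28 on the lame arrays, -1.16 and -0.91 in normal crossbred, and -0.41 and -0.24 in Tharparkar. The lame and Tharparkar arrays overlapped, and both normal crossbred arrays lay below all of them. Lame exceeded normal crossbred by 0.81 (SE 0.19, adjusted p = 0.040), 1.75-fold, with 0.86 within slide 1 and 0.75 within slide 2. The adjusted p was 0.058 with the slide as a block, 0.054 with quantile normalization, 0.074 and 0.076 without lame arrays R1_1 and R1_2, 0.35 and 0.19 without normal crossbred arrays 1 and 2, and 0.088 without either Tharparkar array.

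HSPA8 was also lowest in normal crossbred. It read 4.29, 4.22, 4.69 and 4.57 on the lame arrays, 3.95 and 3.90 in normal crossbred, and 4.99 and 4.86 in Tharparkar. The 3 groups did not overlap, and lame crossbred lay between the normal groups. Normal crossbred was 1.00 (SE 0.20, adjusted p = 0.015) below Tharparkar, 2.01-fold, while lame crossbred differed by 0.52 (SE 0.18, adjusted p = 0.11) from normal crossbred and by -0.48 (SE 0.18, adjusted p = 0.087) from Tharparkar. All 6 kept HSPA8 probes were higher in lame than in normal crossbred, by 0.31 to 0.91, with none past the threshold. Between the normal groups they ranged from -1.37 to 0.21. The adjusted p of the call was 0.097 and 0.11 without normal crossbred arrays 1 and 2, 0.11 and 0.081 without Tharparkar arrays 1 and 2, and 0.15 with quantile normalization.

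DNAJB6 followed with 0.78, 0.80, 1.04 and 1.04 on the lame arrays, 0.28 and 0.42 in normal crossbred, and 1.01 and 1.18 in Tharparkar. Normal crossbred lay below all other arrays, and lame and Tharparkar arrays overlapped. It was 0.75 (SE 0.17, adjusted p = 0.025) lower in normal crossbred than in Tharparkar, and its second probe gave -1.47 (adjusted p = 0.016 over probes). The adjusted p was 0.18 and 0.12 without normal crossbred arrays 1 and 2, and 0.11 and 0.17 without Tharparkar arrays 1 and 2. Beside FKBP4, HSPA8 and DNAJB6, the mean of the monocyte list was lowest and those of the T cell and NK lists were highest in normal crossbred. Genes within a list differed. For lame minus normal crossbred, 4 of 6 monocyte genes were positive and 2 negative, from -1.56 to 1.55. Between the normal groups 6 of 7 T cell genes were positive and 1 was called lower in crossbred, at -1.06. The part of these lists in the differences was not tested.

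**Figure D2:**
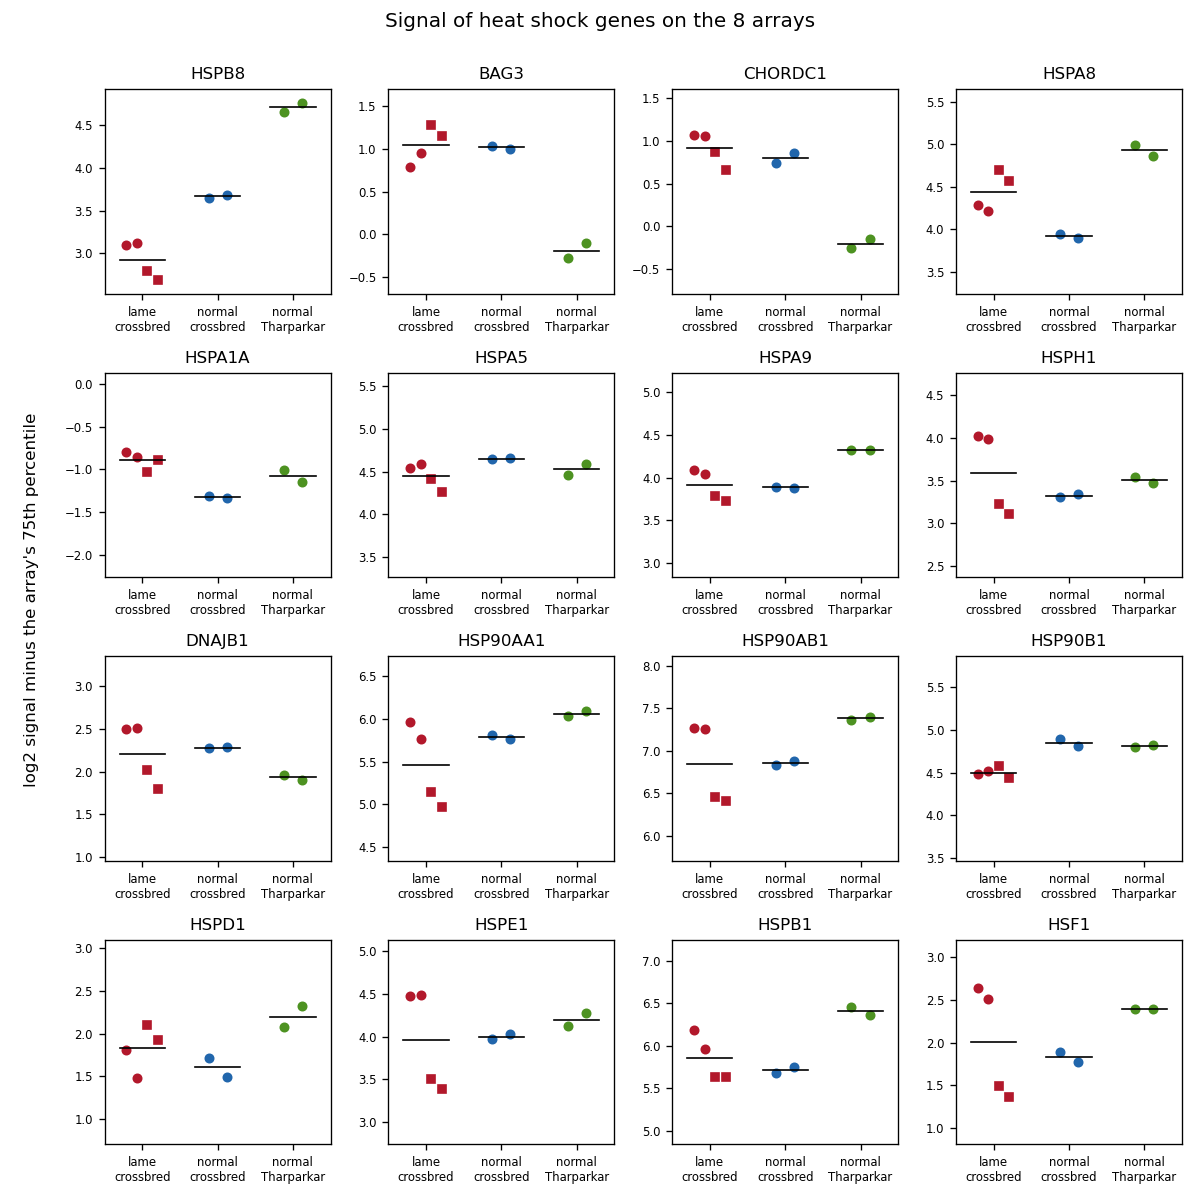
Log2 signal minus the array's 75th percentile for 16 genes on each of the 8 arrays, by group; circles in the lame group are the R1 arrays and squares the R2 arrays, lines are group means, and every panel spans the same range. HSPB8 steps from 2.92 to 3.67 to 4.71 over the group means, and for HSP90AB1, HSPE1, HSPH1 and HSF1 the lame circles and squares lie on opposite sides of normal crossbred.

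HSPA1A, the classical heat-inducible HSP70, was measured by 1 probe, and whether its near-identical gene copy shares that probe was not tested. It read -0.80, -0.86, -1.03 and -0.89 on the lame arrays, -1.31 and -1.34 in normal crossbred, and -1.01 and -1.15 in Tharparkar. All lame arrays lay above normal crossbred, and lame and Tharparkar overlapped. The lame minus normal crossbred difference of 0.43 (SE 0.13, adjusted p = 0.093) missed the threshold, as did -0.25 (SE 0.16, adjusted p = 0.31) between the normal groups. The probe of its neighbour HSPA1L was well above background on none of the 8 arrays. DNAJB1, the inducible J protein that partners HSPA1A, read 2.50, 2.51, 2.02 and 1.80 on the lame arrays, 2.28 and 2.28 in normal crossbred, and 1.96 and 1.91 in Tharparkar. Its differences of -0.07, 0.34 and 0.27 in the 3 comparisons did not pass (adjusted p from 0.42 to 0.89), while its dimmer probe gave -0.28, -0.85 and -1.13, the last 2 at adjusted p = 0.019 and 0.004 over probes. HSPH1, the HSP110 that serves HSP70 as an exchange factor, read 4.02, 3.99, 3.23 and 3.11 on the lame arrays, 3.31 and 3.34 in normal crossbred, and 3.55 and 3.47 in Tharparkar. Both R1 arrays lay above and both R2 arrays below all 4 normal arrays, and no difference between groups passed (adjusted p from 0.64 to 0.87).

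HSPA5, the endoplasmic reticulum HSP70 known as BiP, read 4.55, 4.59, 4.42 and 4.26 on the lame arrays, 4.65 and 4.66 in normal crossbred, and 4.47 and 4.59 in Tharparkar. No difference exceeded 0.20 in size on this probe, although another of its 4 probes gave 1.18 (adjusted p = 0.026 over probes) between the normal groups. HSP90B1, the HSP90 of the same compartment, read 4.48, 4.52, 4.57 and 4.43 on the lame arrays, 4.89 and 4.81 in normal crossbred, and 4.80 and 4.82 in Tharparkar. All lame arrays lay below all normal arrays, by 0.35 (SE 0.12, adjusted p = 0.13) and 0.31 (SE 0.12, adjusted p = 0.12) on average, short of the threshold. The J proteins of this compartment, DNAJC3 and DNAJB9, gave -0.38 and -0.29 for lame against normal crossbred and -0.49 and -0.29 for lame against Tharparkar, and also missed it (adjusted p from 0.088 to 0.23).

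In mitochondria, HSPA9, the HSP70 called mortalin, read 4.09, 4.04, 3.79 and 3.73 on the lame arrays, 3.89 and 3.88 in normal crossbred, and 4.33 and 4.32 in Tharparkar. Tharparkar lay above all crossbred arrays, by 0.44 (SE 0.18, adjusted p = 0.13) over normal crossbred. HSPD1, the chaperonin barrel HSP60, read 1.81, 1.48, 2.10 and 1.93 on the lame arrays, 1.71 and 1.50 in normal crossbred, and 2.07 and 2.32 in Tharparkar. HSPE1, the chaperonin lid HSP10 and the neighbour of HSPD1 in the RefSeq table, read 4.48, 4.49, 3.50 and 3.39 on the lame arrays, 3.97 and 4.03 in normal crossbred, and 4.13 and 4.28 in Tharparkar. Neither passed in any comparison (adjusted p from 0.12 to 0.97). The R1 arrays were above the R2 arrays for HSPE1 by 1.04 on its brightest probe and 0.85 on the other, whereas HSPD1 gave -0.37 on its brightest probe and -0.75 to 0.65 over the other 4. TRAP1, the mitochondrial HSP90, was called in no comparison either, with differences of 0.23, 0.51 and 0.73.

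HSP90AA1, the inducible cytosolic HSP90, read 5.96, 5.76, 5.14 and 4.97 on the lame arrays, 5.81 and 5.76 in normal crossbred, and 6.03 and 6.10 in Tharparkar. HSP90AB1, the constitutive form, read 7.26, 7.25, 6.46 and 6.42 on the lame arrays, 6.83 and 6.88 in normal crossbred, and 7.37 and 7.40 in Tharparkar. For both genes Tharparkar was highest and the lame arrays spread around or below normal crossbred. The lame minus Tharparkar differences were -0.60 (SE 0.29, adjusted p = 0.17) and -0.54 (SE 0.29, adjusted p = 0.22). The 6 probes of HSP90AB1 ranged from -0.01 to 1.13 between the crossbred groups, the last at adjusted p = 0.006 over probes, and from -1.12 to 0.39 between the normal groups. STIP1, which bridges HSP70 and HSP90, and AHSA1, which stimulates the HSP90 ATPase, differed by 0.45 or less in size on their brightest probes.

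HSF1 read 2.65, 2.51, 1.49 and 1.37 on the lame arrays, 1.89 and 1.77 in normal crossbred, and 2.39 and 2.39 in Tharparkar. The lame arrays spanned the levels of both normal groups, and no difference passed (0.17, -0.57 and -0.39, adjusted p from 0.43 to 0.83). A second HSF1 probe gave -0.98 (adjusted p = 0.011 over probes) between the normal groups. HSF2 differed by 0.38 or less in size. Among the members not yet described, HSPA2, HSPA4, HSPA13 and HSPA14 of the HSP70 family, the J proteins DNAJA1 and DNAJA2, HSPBP1 and HSPBAP1 differed by 0.44 or less in size in every comparison and were not called. SERPINH1, the collagen chaperone HSP47, was dim and varied within groups, at -3.59, -3.91, -3.51 and -2.16 on the lame arrays, -3.37 and -3.12 in normal crossbred, and -5.71 and -3.55 in Tharparkar. Its first Tharparkar array was not well above background, and its differences of up to 1.38 (SE 0.77, adjusted p = 0.26) did not pass.

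Many chaperone genes also had different levels inside the lame group, on the R1 and R2 arrays. On the brightest probes, R1 exceeded R2 for 27 of 38 genes (71.1%, beside 60.2% of all genes), with a median of 0.37 beside 0.18 over all genes. A gap of at least 0.5 was seen for 16 genes (42.1%, beside 28.7% of all genes). The genes named next were chosen after their values were seen. The gap was 1.15 for HSF1, 1.05 for STIP1, 1.04 for HSPE1, 1.01 for TRAP1, 0.92 for AHSA1, 0.88 for HSPA4, an HSP110 relative, 0.83 for HSPH1, 0.82 for HSP90AB1 and 0.81 for HSP90AA1. It ran the other way for HSPA13, an HSP70 of the microsomes, at -1.03, and HSPA2, an HSP70 best known from the testis, at -0.94. For 15 of 38 genes (39.5%, beside 15.7% of all genes) both R1 arrays lay above and both R2 arrays below the normal crossbred arrays, and for 3 (HSPA2, HSPA13 and BAG3; 7.89%, beside 5.94% of all genes) the reverse held. No test is given for this gap, since R1 and R2 may be 1 RNA sample each.

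The median gap was 0.37 on slide 1, which holds lame arrays R1_1 and R2_1, and 0.38 on slide 2, which holds R1_2 and R2_2. It was 0.36 with normexp and 0.23 with quantile normalization, which gave all genes 0.13 and 0.16. With quantile normalization the shares turned round: R1 exceeded R2 for 57.9% of the 38 genes beside 61.5% of all genes, and a gap of at least 0.5 was seen for 23.7% beside 30.0%. With every kept probe of a gene averaged it was 0.16 beside -0.01 over all genes, and 8 of 38 genes (21.1%, beside 20.4% of all genes) had a gap of at least 0.5. Other probes of STIP1 gave gaps from -0.66 to 1.02 and those of HSF1 -0.10 and -0.11, while the second HSPA4 probe gave 0.88. The B cell and granulocyte lists also had R1 above R2, by medians of 0.48 and 0.34. The NK list gave -1.06, the erythroid list -0.73, the monocyte list -0.45, the T cell list -0.19, the platelet list -0.13 and the early response list -0.11. Their part in the gap was not tested. With R1 alone as the lame group, 25 of 38 chaperone genes passed against normal crossbred (17 higher, 8 lower), and with R2 alone 15 passed (4 higher, 11 lower). These fits called 7166 and 6997 of 15137 genes, and their spread is that between the 2 arrays of each group.

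**Figure D3:**
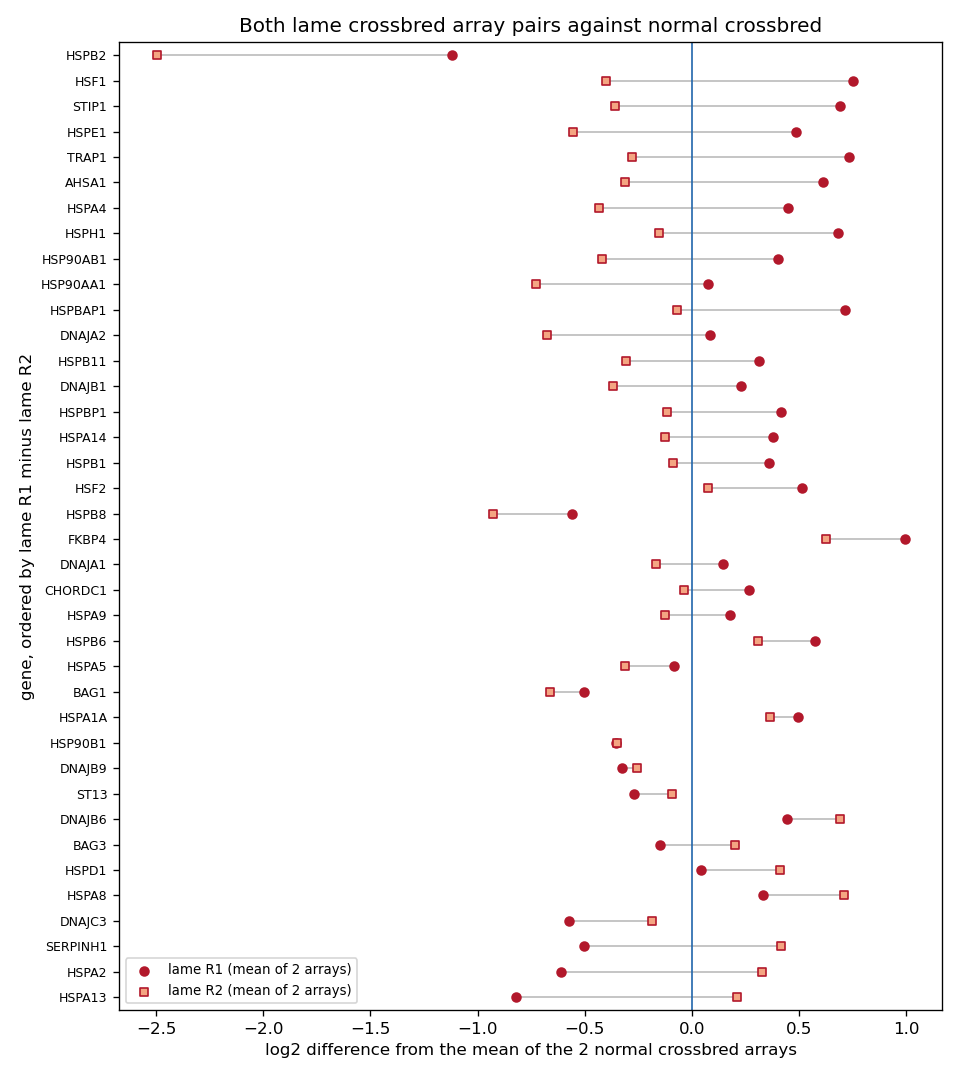
Log2 difference of the lame R1 pair (circles) and the lame R2 pair (squares) from the mean of the 2 normal crossbred arrays (line at 0), for the 38 tested genes ordered by the R1 minus R2 gap, each on its brightest probe. HSF1, STIP1, HSPE1 and TRAP1 have R1 to the right and R2 to the left of normal crossbred, with gaps of 1.01 to 1.15, while HSPB8, BAG1 and HSP90B1 have both pairs on the left.

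Probes of the same gene often disagreed. Of the 38 tested genes, 23 had more than 1 kept probe. Their probes took both signs for 10 of 23 genes between lame and normal crossbred, 14 of 23 between the normal groups and 12 of 23 between lame crossbred and Tharparkar. The spread between a gene's probes had a median of 0.71, 1.10 and 0.78 in these comparisons. The median SE of a difference on the brightest probe, over all 38 genes, was 0.22, 0.26 and 0.22. These are unlike measures, since the spread covers several probes and the SE only 1. HSPB8 had all its probes on the same side in both comparisons with Tharparkar, as did DNAJB6.

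**Figure D4:**
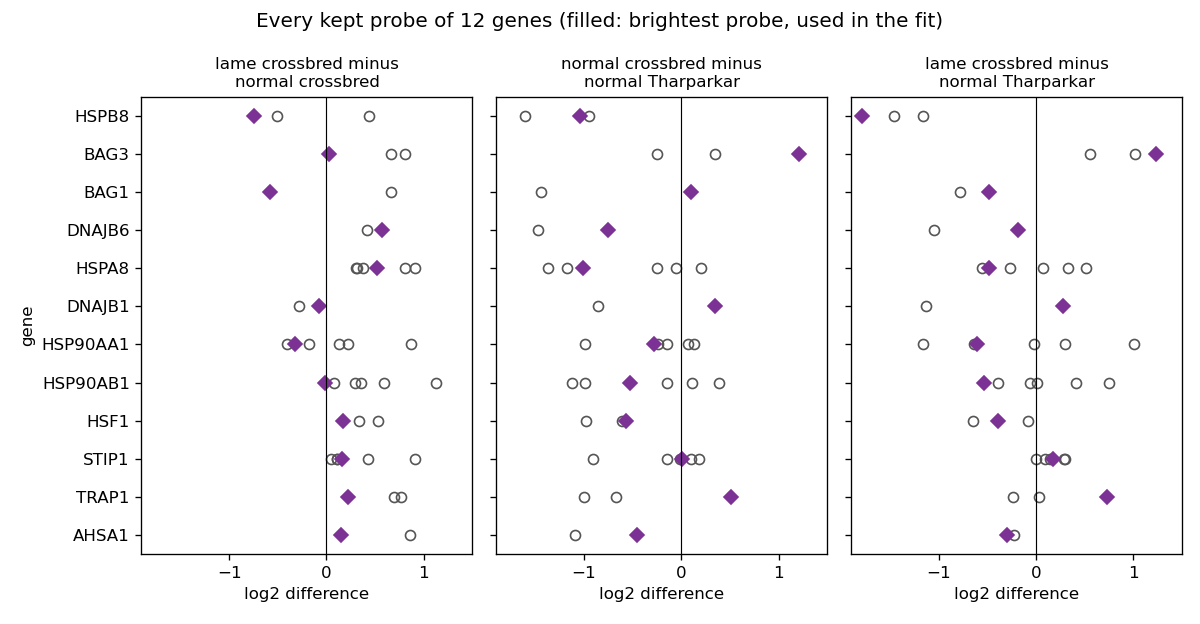
Log2 difference of each kept probe (horizontal axis) of 12 genes in the 3 comparisons; filled diamonds are the brightest probe, which represents the gene in the fit, and open circles the others. HSPB8 probes all lie left of 0 in both comparisons with Tharparkar, whereas BAG1 probes lie on both sides between the crossbred groups, at -0.58 and 0.67.

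The wider chaperone network was read from 4 further lists. Of 40 tested partner cochaperones (47 listed), 3 were called higher (7.5%, beside 3.28% of all genes) and 0 lower (6.33% of all genes) in lame than in normal crossbred: PPP5C, a phosphatase held by HSP90, at 1.23 (SE 0.29, adjusted p = 0.040), FKBP5, a glucocorticoid-induced relative of FKBP4, at 1.05 (SE 0.13, adjusted p = 0.0037), and the J protein DNAJC16 at 0.77 (SE 0.18, adjusted p = 0.039). Between the normal groups 0 were called higher (11.8% of all genes) and 2 lower (5%, beside 6.88% of all genes) in crossbred, PPP5C at -1.75 (adjusted p = 0.012) and DNAJC16 at -1.54 (adjusted p = 0.0034). Against Tharparkar, lame crossbred had 2 called higher (5%, beside 12.6% of all genes), FKBP5 at 1.32 (adjusted p = 0.00070) and TTC4, an HSP90 partner, at 1.05 (adjusted p = 0.0060), and 3 called lower (7.5%, beside 10.7% of all genes), DNAJC25 at -0.78 (adjusted p = 0.016), DNAJC16 at -0.77 (adjusted p = 0.020) and DNAJA3 at -0.61 (adjusted p = 0.045). The list medians were 0.03, -0.13 and -0.06, and 4, 9 and 9 of the 40 genes had an unadjusted limma p under 0.05. Over all genes, 3903, 5104 and 5685 of 15137 had one.

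The 8 HSP70 exchange factors beyond the main list had 0 called by limma between lame and normal crossbred. There 1 had an unadjusted p under 0.05, beside 3903 of 15137 genes. Between the normal groups 4 of 8 were called lower in crossbred, beside 6.88% of all genes: BAG6 at -1.45 (adjusted p = 0.032), BAG2 at -1.41 (adjusted p = 0.016), the mitochondrial GRPEL1 at -0.94 (adjusted p = 0.048) and BAG5 at -0.76 (adjusted p = 0.012). BAG2, at -1.20 (adjusted p = 0.015), and BAG6, at -1.04 (adjusted p = 0.0499), were also called lower in lame crossbred than in Tharparkar. The list medians were 0.17, -0.43 and -0.21. BAG3, by contrast, was called higher than Tharparkar in both crossbred groups.

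The cytosolic chaperonin CCT and its delivery partner prefoldin, which fold actin and tubulin, had all 14 subunits measured. By limma, 0 were called between the crossbred groups, with 0 at an unadjusted p under 0.05, beside 3903 of 15137 genes. Between the normal groups 0 were called, with 3 at an unadjusted p under 0.05, beside 5104 of 15137 genes. There all 14 had a negative difference with a median of -0.42, beside 7455 of 15137 genes and a median of 0.01 over all genes. In lame crossbred against Tharparkar 12 of 14 were negative (7674 of 15137 over all genes) and 2 were called lower (14.3%, beside 10.7% of all genes), CCT7 and PFDN1, both at -0.71 (adjusted p = 0.039). These subunits also followed the gap inside the lame group, with R1 above R2 by a median of 0.55. A list headed as HSF1-linked genes outside the chaperones had 7 measured genes (10 listed). Of these, 2 were called higher in lame than in normal crossbred (28.6%, beside 3.28% of all genes). These were HSF2BP, named for binding HSF2 and not HSF1, at 0.72 (adjusted p = 0.036) and HMOX1, the stress-induced heme oxygenase, at 0.63 (adjusted p = 0.023). The activity of HSF1 was not tested. The other 5 had negative differences, down to -1.73 and not called, and the list median was -0.12, beside -0.04 over all genes. Between the normal groups all 7 were negative, with a median of -0.22. There HSF2BP was called lower in crossbred, at -1.08 (adjusted p = 0.0087), or 14.3% of the list beside 6.88% of all genes. Between lame crossbred and Tharparkar 6 of 7 were negative and 0 were called. In that comparison 1 had an unadjusted limma p under 0.05, beside 5685 of 15137 genes.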

How the data were processed

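Blood mononuclear cell RNA of 8 samples was measured on 1-colour bovine arrays. Intensity values were background-subtracted by Agilent Feature Extraction, version 11.5.1.1 per the submitters' processing notes and 12.0.3.1 per the file headers. The authors' deposited table of log2 values equalled the values used here minus each probe's median. Here, each array's log2 processed signal was centred on its 75th percentile over 43653 probes, spots of a probe were averaged and 35 nonuniform probes dropped. A probe was kept if well above background on every array of a group, and the brightest kept probe stood for its gene, with RefSeq symbols where accessions matched (27054 probes). limma 3.58.1 (R 4.3.3) tested differences between group means, with Benjamini-Hochberg adjustment over 15137 genes and a threshold of 0.05. "Over probes" marks adjustment over all 24658 kept probes.

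The members and lists were chosen with earlier results of these data known. Array values are given for 13 core genes and for called genes differing by at least 1 on the log2 scale, and here also for other called genes. Of the wider lists, up to 3 called genes per comparison are named; DNAJC16 and DNAJA3 against Tharparkar and BAG5 were added after their values were seen. Slides pair the arrays of the normal groups, per the file headers. Same-slide deviations from the group means correlated at 0.238. With 2 arrays per normal group the opposite pairing gives -0.238 by construction, so the value is not a test of the pairing. The files hold no mean signal, so the normexp alternative used the median signal. The fit was run on simulated data with independent noise on each array, so that check does not cover the technical duplicates.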

Additional observations from a re-analysis of the deposited data

How the results depend on the processing

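The counts of called genes depended on the unit of replication, and those over all genes moved too. Between the crossbred groups the main fit called 1455 of 15137 genes, normexp 641, the array median 370 and the slide block 1002. The RNA sample block called 23 and the 2 groups alone 723. Between the normal groups the main fit called 2829, normexp 1312, the array median 443 and the slide block 2271. There the mean of probes called 3355, the RNA sample block 96 and the 2 groups alone 8690. The counts below are those of the 38 genes. Those with duplicates averaged come from a fit with 1 sample in each normal group and are not read as a result. For lame against normal crossbred, 3 genes became 1 with normexp, 0 with the array median, 0 with no filter on dim probes, 0 with the slide as replicate block, 0 with duplicates averaged, 0 with the RNA sample as a random block, 0 with only the 2 groups compared, 25 with lame R1 alone and 15 with lame R2 alone, and 0 to 4 with 1 array left out. For normal crossbred against Tharparkar, 5 became 2 with normexp, 0 with the array median, 8 with the mean of probes, 1 with no filter, 0 with duplicates averaged, 0 with the RNA sample block, 18 and 17 with lame R1 or R2 alone, 19 with only the 2 groups, and 0 to 6 with 1 array left out; the slide as replicate block kept 5. For lame crossbred against Tharparkar, 4 became 1 with the array median, 0 with duplicates averaged, 1 with the RNA sample block, 25 and 21 with R1 or R2 alone, 1 to 5 with 1 array left out, and 3 with the slide as replicate block. Where 0 were called, the genes at an unadjusted limma p under 0.05 numbered 2, 7, 8, 1, 2 and 7 in the order given for the crossbred groups (array median to 2 groups), 0, 0 and 4 for the normal groups, and 3 for lame against Tharparkar. Of 12 calls, 8 held with the slide block, 1 (HSPB8, lame against Tharparkar) with the RNA sample block and 0 with duplicates averaged. BAG1 reversed to 0.041 between the crossbred groups with the mean of its probes. For lame against Tharparkar, all genes called numbered 3521 in the main fit and 660 with the array median. The slide block gave 2907 there and the RNA sample block 203. With lame R1 or R2 alone, all genes called numbered 8748 and 7149 between the normal groups. For lame against Tharparkar they numbered 8379 and 8788. With no filter on dim probes, 356 and 997 of 26649 genes were called between the crossbred groups and between the normal groups. The array median moved the median of all genes to -0.55 and -0.57 in the comparisons with lame arrays. The lame R1 minus R2 alternatives were chosen after seeing the data, and the array median gave 1.30 beside 1.11 over all genes.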
